A study of Mus musculus with 43 samples.

Results

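Fos, Fosb, Jun, Junb, Jund, Egr1, Atf3, Ier2, Nr4a1 and Zfp36 were followed as a group of 10 genes in PD798, an epithelial tumor line derived from the pancreas of KPCY mice. In the KPCY model a Cre recombinase under the Pdx1 promoter acts in the pancreas, where it deletes a floxed copy of p53 and switches on YFP. The 10 genes were chosen by symbol, all 10 were found in both deposited tables, of 13845 and 13817 genes, and all 10 passed the filter on low values. Expression was measured in 43 libraries made with SMART-Seq v4 chemistry from this 1 line, which had been grown in medium with serum and dissociated before use.

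The processing experiment compared 4 handling conditions with 3 libraries each. Pre-FACS cells were set aside before any sort. Mock cells stood in staining buffer at room temperature for as long as the sort took. Pre-enriched cells had been incubated with magnetic particles and red cell lysis buffer, went through magnetic depletion and acoustic focusing and were then sorted on a BD Influx. FACS-only cells are described as the same sample, put through the Influx with no depletion or focusing, so that particles and lysis buffer are not particular to Pre-enriched cells. The labels give the input of all 12 libraries as bulk. The labels speak of blood for these libraries as well, which the study's description of the 4 conditions does not. The input series held 11 single cells, 12 pools of 10 cells, 6 pools of 100 cells and 2 libraries of bulk RNA. The labels name no separate cultures, so the p-values given here measure only the spread between libraries.

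Immediate-early genes are transcribed within minutes of a stimulus, without new protein synthesis, when signalling kinases activate factors such as SRF and CREB that already sit at their promoters. Their products are mostly short-lived transcription factors, and their transcripts are unstable. Fos and Jun family proteins pair to form AP-1, and Zfp36 encodes tristetraprolin, which binds AU-rich elements in mRNA and speeds the decay of many of these transcripts. Detachment of cells, shear and temperature are known to induce these genes in many tissues, which is why they are commonly read in studies of cell handling.

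Sequence just before a RefSeq transcript start is shown for the 6 genes whose windows held a CRE half-site or a CArG box. The CRE half-site is the core letters bound by CREB and ATF proteins, and the CArG box is the element bound by SRF. The sequences are those of RefSeq on GRCm38.p6, in which 8 of the 10 genes had a promoter window. They read 5′ to 3′ on the strand of the gene, with the motif in capitals. For Atf3 and Zfp36 only 30 bases around the motif are given.
Fos: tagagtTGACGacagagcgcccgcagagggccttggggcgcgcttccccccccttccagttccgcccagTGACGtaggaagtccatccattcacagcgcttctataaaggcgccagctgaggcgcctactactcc
Fosb: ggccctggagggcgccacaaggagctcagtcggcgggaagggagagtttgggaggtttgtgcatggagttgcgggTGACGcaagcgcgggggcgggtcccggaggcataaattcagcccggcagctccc
Junb: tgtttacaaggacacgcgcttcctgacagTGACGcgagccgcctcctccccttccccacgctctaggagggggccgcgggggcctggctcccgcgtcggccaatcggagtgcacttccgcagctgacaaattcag
Atf3: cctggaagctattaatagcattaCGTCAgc
Nr4a1: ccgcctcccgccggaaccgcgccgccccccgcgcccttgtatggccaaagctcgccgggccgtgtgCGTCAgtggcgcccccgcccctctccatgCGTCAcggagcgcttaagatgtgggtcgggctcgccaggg
Zfp36: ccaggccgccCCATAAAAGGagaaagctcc

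These stretches lie at chr12:85473755-85473889 on the plus strand (Fos), chr7:19310052-19310180 on the minus strand (Fosb), chr8:84978749-84978883 on the minus strand (Junb), chr1:191183334-191183363 on the minus strand (Atf3), chr15:101266711-101266845 on the plus strand (Nr4a1) and chr7:28379267-28379296 on the minus strand (Zfp36). The CRE half-site was searched as TGACG on both strands, over windows of 250 bases before and 50 bases after the start. It was found in 5 of the 8 members with a window and in 20.8% of all 32851 promoter windows. Nr4a1 held 4 matches, of which the printed stretch shows 2, Fos held 2, and Fosb, Junb and Atf3 held 1 each. The CArG box was found in Zfp36 alone among the 8, and in 1.63% of all windows. Egr1 and Ier2 had no window, and bases outside the windows were not searched, so motifs farther away could not be seen. The EGR site GCGNGGGCG was found in 3 members (Fosb, Nr4a1 and Zfp36) and in 5.55% of all windows. The full CRE TGACGTCA, which contains the half-site, and the AP-1 site TGANTCA were found in 0 of the 8 members, and in 1.79% and 7.81% of all windows. Jun and Jund held none of these 5 motifs in their windows. The start used for Jund directly followed chr8:70697738 on the plus strand, whereas GENCODE M21 begins the gene at 70698949. The Jund window therefore does not describe the sequence at that annotated start. The printed stretches of Atf3, Nr4a1 and Zfp36 also lie inside the genes as annotated there. The outermost annotated starts are chr1:191218039 on the minus strand (Atf3), chr15:101254269 on the plus strand (Nr4a1) and chr7:28380253 on the minus strand (Zfp36). A match of letters is a description of the sequence and not a binding site.

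TPM is a share of the transcripts of a library and corrects for transcript length, so that levels can be set beside each other between genes within a library. It keeps no record of depth, so the number of reads behind a value is unknown. The 12 libraries of the processing experiment carried all 7 epithelial markers, summing to between 23901 and 27360 TPM, of which Epcam was at 32.1 to 38.9 TPM and Cldn7 at 2.78 to 7.65 TPM. Of 20 blood cell markers 4 were measured, and together they held 2.77 to 4.64 TPM in Mock, 3.67 to 4.37 in Pre-FACS, 2.70 to 3.93 in FACS-only and 3.99 to 7.92 in Pre-enriched libraries. In bulk libraries fewer cells of a type and less RNA per cell cannot be told apart.

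In cells that had not been sorted the immediate-early transcripts were already among the most abundant of the line. In Pre-FACS libraries Junb, a Jun family partner of AP-1, was at 2240.2 ± 349 TPM (SD, n = 3), and its median lay above 99.8% of the genes of the table. Egr1, a zinc finger factor induced by growth factors, was at 1762 ± 397 TPM (SD, n = 3), and Ier2, a small nuclear protein of the early response, was at 1579 ± 142 TPM (SD, n = 3). The range of Egr1 overlapped those of Junb and Ier2, whereas the lowest Junb library lay above the highest Ier2 library. Zfp36 followed at 1024 ± 168 TPM (SD, n = 3) and Fos, the founding member of its family, at 752 ± 148 TPM (SD, n = 3), again with overlapping ranges, whereas the lowest Ier2 library lay above the highest Zfp36 library. Jund at 294 ± 28.9, Atf3 at 279 ± 52.6, Nr4a1 at 239 ± 140 and Jun at 235 ± 33.6 TPM (SD, n = 3 each) could not be ordered beyond their spread. Fosb was the lowest by a wide margin, at 15.1 ± 11.1 TPM (SD, n = 3), with its median above 34.3% of genes.

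Across the 4 conditions the members were most often lowest in Pre-FACS and highest in FACS-only libraries. The mean of FACS-only was the highest of the 4 for 8 of 10 members (all but Jund and Ier2), a pattern held by 26.2% of the 12159 genes tested. The mean of Pre-FACS was the lowest for 8 of 10 members (all but Jun and Jund), as for 23.6% of genes. With limma and Benjamini-Hochberg adjustment over all genes, 0 of 10 members were called among the 4 conditions (percent of all genes called 0.107), while 5 of 10 had an unadjusted p under 0.05 (7.56% of all genes). This fit takes no account of the library number, and its counts of called members changed when the number was added as a term. With that term limma called 7 members among the 4 conditions (0.502% of all genes called). In FACS-only against Pre-FACS it called the same 7 (0.633% of all genes called), at limma adjusted p-values up to 0.00568. They were Fos, Fosb, Jun, Egr1, Atf3, Nr4a1 and Zfp36. The intervals and adjusted p-values given gene by gene below are from the fit without that term.

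**Figure D1:**
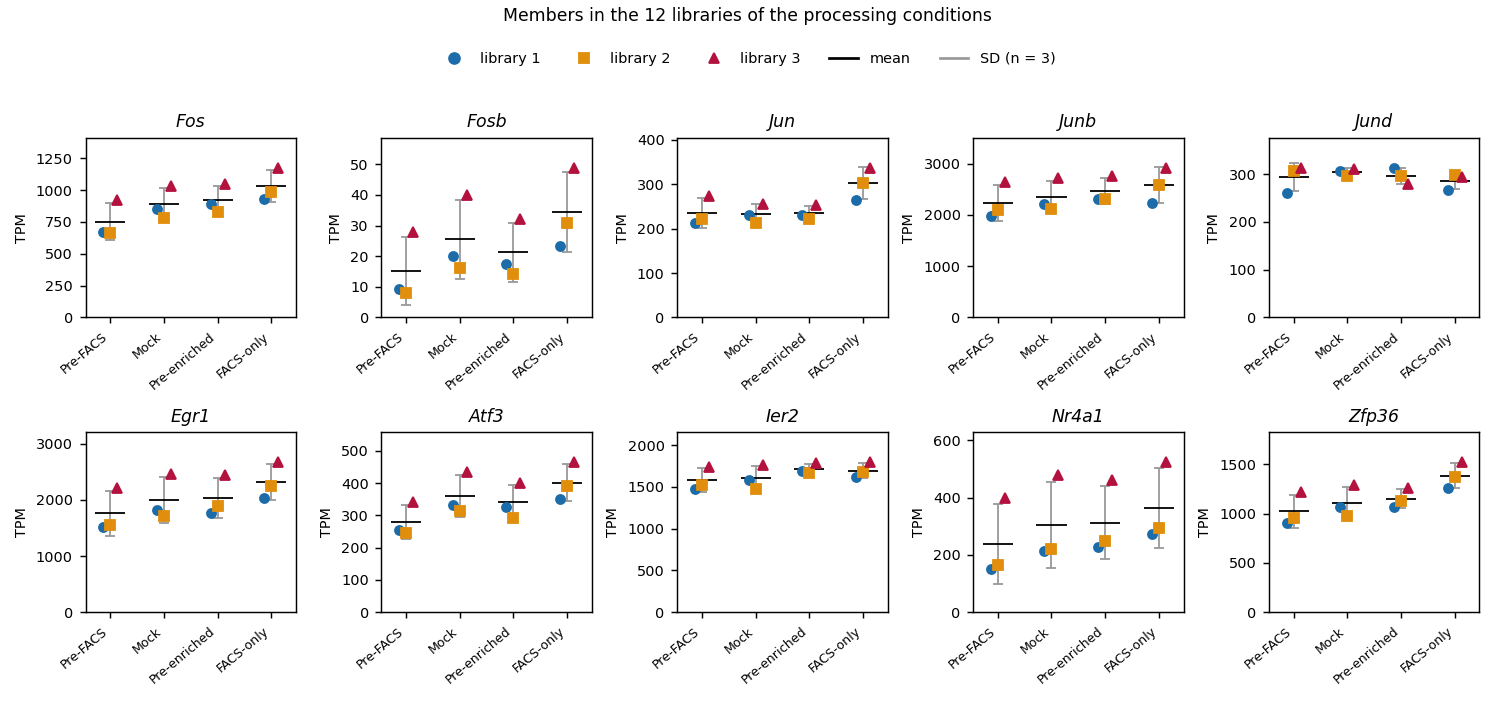
TPM of the 10 genes (vertical axes, each from 0) in the 4 handling conditions, with 1 symbol per library, the mean as a black line and the SD over 3 libraries as a grey bar. Library 3 lies highest within each condition for every gene except Jund, and FACS-only has the highest mean for 8 of 10 genes.

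Fos was at 670.3, 664 and 923 TPM in Pre-FACS libraries 1, 2 and 3. In the same order it was at 853, 784 and 1031 TPM in Mock, at 889, 828.8 and 1046 TPM in Pre-enriched and at 931, 988 and 1175 TPM in FACS-only libraries. All 3 FACS-only libraries lay above all 3 Pre-FACS libraries, with library 3 of Pre-FACS just under library 1 of FACS-only. The difference between FACS-only and Pre-FACS was 0.46 on the log2(TPM + 1) scale (95% confidence interval 0.20 to 0.73, limma adjusted p = 0.325).

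Fosb, the close relative of Fos, was at 9.25, 8.09 and 27.9 TPM in Pre-FACS libraries 1 to 3. It was at 20.2, 16.2 and 40.1 TPM in Mock, at 17.3, 14.2 and 32.2 TPM in Pre-enriched and at 23.3, 30.9 and 48.9 TPM in FACS-only libraries. Libraries 1 and 2 of Pre-FACS were the lowest of the 12, but library 3 of Pre-FACS exceeded library 1 of FACS-only, so that the conditions overlapped. Its difference between FACS-only and Pre-FACS, 1.28 on the log2 scale (0.42 to 2.15, limma adjusted p = 0.453), was the largest of the 10 genes and came with the widest interval.

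Jun was at 211, 221 and 274 TPM in Pre-FACS, at 229, 212 and 256 TPM in Mock, at 231, 221 and 253 TPM in Pre-enriched and at 265, 302 and 337 TPM in FACS-only libraries 1 to 3. FACS-only libraries lay above every Mock and every Pre-enriched library, and the other 3 conditions covered nearly the same range. The difference between FACS-only and Mock was 0.37 on the log2 scale (0.16 to 0.58, limma adjusted p = 0.731), and that between Pre-enriched and FACS-only was -0.35 (-0.57 to -0.14, limma adjusted p = 0.498).

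Junb was at 1979, 2105 and 2637 TPM in Pre-FACS, at 2221, 2125 and 2714 TPM in Mock, at 2318, 2316 and 2767 TPM in Pre-enriched and at 2231, 2589 and 2923 TPM in FACS-only libraries 1 to 3. All 4 conditions overlapped, and the library number separated the values more than the condition did. FACS-only differed from Pre-FACS by 0.21 on the log2 scale (-0.04 to 0.45, limma adjusted p = 0.778).

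Jund, the Jun protein that is made constitutively in many cells, stood apart from the other 9 genes. It was at 261, 307 and 314 TPM in Pre-FACS, at 306, 297 and 312 TPM in Mock, at 314, 296 and 279 TPM in Pre-enriched and at 266, 298 and 294 TPM in FACS-only libraries 1 to 3. Neither a condition nor a library number was high throughout. The difference between FACS-only and Pre-FACS was -0.04 on the log2 scale (-0.18 to 0.11, limma adjusted p = 0.958), the only negative one of the 10.

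Egr1 was at 1514, 1552 and 2221 TPM in Pre-FACS, at 1828, 1706 and 2466 TPM in Mock, at 1764, 1889 and 2437 TPM in Pre-enriched and at 2032, 2247 and 2668 TPM in FACS-only libraries 1 to 3. Library 3 of Pre-FACS exceeded library 1 of FACS-only, and the conditions overlapped. For Egr1 FACS-only differed from Pre-FACS by 0.41 on the log2 scale (0.08 to 0.74, limma adjusted p = 0.591).

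Atf3, a stress-induced factor of the ATF and CREB family, was at 254, 245 and 339.9 TPM in Pre-FACS, at 331, 314 and 433 TPM in Mock, at 327, 292 and 401 TPM in Pre-enriched and at 349, 390.4 and 464 TPM in FACS-only libraries 1 to 3. The lowest FACS-only library lay above the highest Pre-FACS library. Its difference between FACS-only and Pre-FACS was 0.53 on the log2 scale (0.22 to 0.83, limma adjusted p = 0.325), and its difference between Mock and Pre-FACS was 0.36 (0.06 to 0.67, limma adjusted p = 0.997).

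Ier2 was at 1479, 1517 and 1741 TPM in Pre-FACS, at 1577, 1479 and 1759 TPM in Mock, at 1694, 1663 and 1785 TPM in Pre-enriched and at 1616, 1673 and 1793 TPM in FACS-only libraries 1 to 3. The range over all 12 libraries was narrow and the conditions overlapped. FACS-only differed from Pre-FACS by 0.10 on the log2 scale (-0.04 to 0.25, limma adjusted p = 0.829).

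Nr4a1, an orphan nuclear receptor known as Nur77, was at 152, 165 and 399.65 TPM in Pre-FACS, at 214, 221 and 478 TPM in Mock, at 228, 249.5 and 461 TPM in Pre-enriched and at 274, 294 and 523 TPM in FACS-only libraries 1 to 3. The 4 libraries numbered 3 lay above the other 8, whatever the condition. Between FACS-only and Pre-FACS the difference was 0.69 on the log2 scale. In the fit without the library number its interval included 0 (-0.09 to 1.47, limma adjusted p = 0.767). With that number as a term limma called Nr4a1 in this pair.

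Zfp36 was at 904, 951 and 1216 TPM in Pre-FACS, at 1063, 979.8 and 1294 TPM in Mock, at 1065, 1130.1 and 1257 TPM in Pre-enriched and at 1263, 1376 and 1519.8 TPM in FACS-only libraries 1 to 3. FACS-only libraries lay above every Pre-FACS and every Pre-enriched library. The difference between FACS-only and Pre-FACS was 0.45 on the log2 scale (0.21 to 0.68). Its limma adjusted p of 0.220 was the lowest of any member in any pair of the fit without the library number.

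Between FACS-only and Pre-FACS libraries the groups did not overlap for 3 members, Fos, Atf3 and Zfp36, with FACS-only higher, as for 5.81% of all genes. Between FACS-only and Mock this held for Jun (5.11% of all genes, FACS-only higher), and between Pre-enriched and FACS-only for Jun and Zfp36 (7.41% of all genes, Pre-enriched lower). Groups of the other kinds did not separate for any member, which happened for 4.93% of all genes with Mock above Pre-FACS, 4.41% with Mock below Pre-FACS, 5.8% with FACS-only below Pre-FACS, 6% with Pre-enriched above and 8.24% with Pre-enriched below Pre-FACS, 5.4% with FACS-only below Mock, 6.6% with Pre-enriched above and 8.81% with Pre-enriched below Mock, and 4.91% with Pre-enriched above FACS-only. The median difference of the 10 genes from Pre-FACS was 0.43 on the log2 scale in FACS-only, 0.19 in Pre-enriched and 0.15 in Mock libraries, where the medians over all genes were 0.00, -0.01 and -0.00. These 3 comparisons share the Pre-FACS libraries. The median difference of Pre-enriched from Mock was 0.04 and that of Pre-enriched from FACS-only was -0.21, against -0.01 over all genes for both.

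In the fit without the library number, none of the 6 pairs held a member past the threshold. The percent of all genes called by limma was 0.123 for FACS-only against Pre-FACS, 0.0493 for Pre-enriched against Pre-FACS, 0.00822 for Mock against Pre-FACS and 0 for the other 3 pairs. Unadjusted p-values under 0.05 were given to 6 of 10 members in FACS-only against Pre-FACS (6.96% of all genes), to 1 in Pre-enriched against Pre-FACS (9.18%), to 1 in Mock against Pre-FACS (4.53%), to 2 in FACS-only against Mock (5.63%), to 0 in Pre-enriched against Mock (7.77%) and to 2 in Pre-enriched against FACS-only (6.75%). A p that misses the threshold does not show that the conditions were alike, and the intervals of FACS-only against Pre-FACS left differences of 0.68 to 0.83 on the log2 scale possible for Fos, Atf3 and Zfp36.

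**Figure D2:**
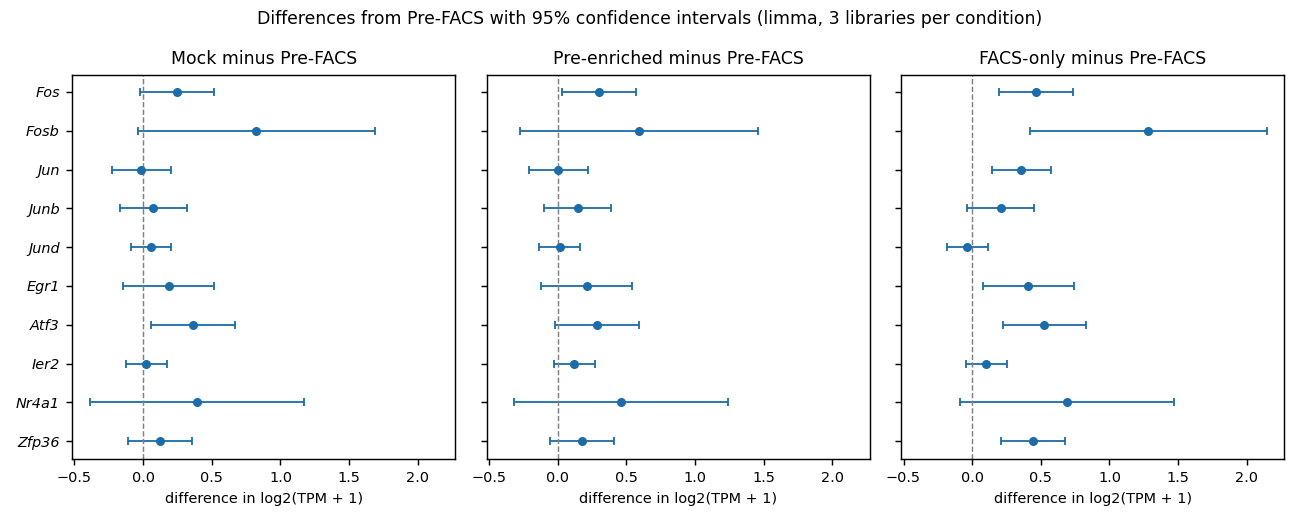
Differences of Mock, Pre-enriched and FACS-only from Pre-FACS in log2(TPM + 1) (horizontal axes) for the 10 genes, with points for the limma estimates and bars for 95% confidence intervals. The intervals lie above 0 for 6 genes in FACS-only, for Fos in Pre-enriched and for Atf3 in Mock. None of these differences passed the adjusted threshold in this fit, which has no term for the library number.

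The members also differed regularly by library number. Library 3 was the highest of the 3 libraries in all 4 conditions for 9 of 10 members, every one but Jund, and for 2.56% of all genes. No member was highest in library 1 or in library 2 throughout, which 2.68% and 1.91% of all genes were. Nr4a1 was 1.84 to 2.53 times as high in library 3 as in the mean of libraries 1 and 2, and Fosb was 1.80 to 3.22 times as high. The ratios were 1.25 to 1.45 for Egr1, 1.25 to 1.36 for Atf3, 1.22 to 1.38 for Fos, 1.19 to 1.29 for Junb, 1.15 to 1.31 for Zfp36, 1.12 to 1.27 for Jun and 1.06 to 1.16 for Ier2. For Jund they were 0.916 to 1.10, on both sides of 1. The ratio was highest in Pre-FACS for 10 of 10 members, as for 32.0% of all genes. What libraries of 1 number share is not stated by the labels. The study describes FACS-only and Pre-enriched cells as 1 sample but does not tie its aliquots to these numbers.

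**Figure D3:**
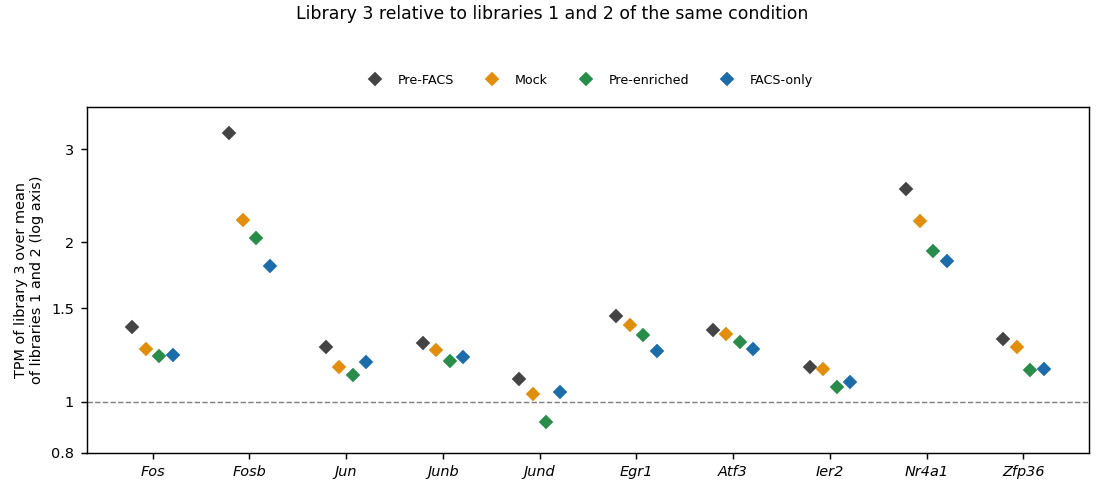
TPM of library 3 divided by the mean of libraries 1 and 2 of the same condition (vertical axis, log scale) for the 10 genes, with 1 symbol per condition and a dashed line at 1. Nr4a1 and Fosb lie between 1.80 and 3.22, and Jund is the gene with ratios on both sides of 1.

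Since the 4 libraries numbered 3 stood apart for these genes, the comparison was repeated without them, an alternative chosen after the values had been seen. With 2 libraries per condition, 6 of 10 members passed the limma threshold with a higher level after FACS-only than before the sort (0.167% of all genes called in either direction), which were Fos, Fosb, Egr1, Atf3, Nr4a1 and Zfp36. The difference was 0.52 for Fos (adjusted p = 0.00759), 1.53 for Fosb (0.00759), 0.48 for Egr1 (0.0107), 0.57 for Atf3 (0.0107), 0.84 for Nr4a1 (0.00125) and 0.51 for Zfp36 (0.00915) in this limma fit. Nr4a1 was also past the threshold in Pre-enriched against Pre-FACS, by 0.59 (limma adjusted p = 0.0409, 0.0167% of all genes called), and among the 4 conditions (limma adjusted p = 0.0114, 0.0167% of all genes called). The other 4 pairs held 0 called members. The count for FACS-only against Pre-FACS thus moved from 0 to 6 with the choice of libraries, and the 4 left out were not a condition of the study. They were left out because these same members were high in them, which removes spread within conditions for these genes. Adjusted p-values without these libraries, here and below, are therefore a description and not a test.

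The members rose and fell with Fos from library to library. Over the 12 libraries Pearson's r with Fos in log2(TPM + 1) was 0.976 for Atf3, 0.974 for Fosb, 0.959 for Egr1, 0.942 for Zfp36, 0.919 for Junb, 0.886 for Ier2 and 0.830 for Jun. Spearman's rho was 0.979, 0.972, 0.951, 0.923, 0.923, 0.888 and 0.839 in the same order. For Jund r was 0.145 and rho was -0.0559, with permutation p-values of 0.653 and 0.870. Of the other 8 genes 7, Nr4a1 among them, passed the threshold when the two-sided permutation p-values of r were adjusted over all 12158 genes (0.329% of genes called), with adjusted p-values of 0.0111 to 0.0394, and Jun did not, at 0.116. The raw permutation p-values of these 8 ran from 1e-05, the smallest the resamples allow, to 0.00068 for r and from 1e-05 to 0.00115 for rho, over 9 relations computed. Nr4a1 fell into separate clusters by library number, so its relation is given over the 8 libraries numbered 1 and 2, where r was 0.948.

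Without the 2 libraries farthest from the median of Fos, Pre-FACS 1 and 2, r stayed between 0.822 and 0.950 for the 8 genes and was -0.168 for Jund. As deviations from the mean of each condition, r was 0.951 to 0.996 for the 8 genes and 0.356 for Jund, with exact within-condition permutation p-values of 0.000772 to 0.00926 and of 0.445. The permutations, over all libraries or within conditions, treat libraries as independent. Over the members alone the deviations of same-numbered libraries correlated at 0.604 to 0.993. The conditions thus repeat much the same contrast, and these permutation p-values are too small. Over the 8 libraries numbered 1 and 2, r with Fos was 0.965 for Atf3, 0.963 for Fosb, 0.935 for Egr1, 0.905 for Zfp36, 0.857 for Junb, 0.792 for Ier2, 0.778 for Jun and 0.159 for Jund, and 0 relations passed the threshold over all genes. The 3 genes outside the group most like Fos over the 12 libraries were Ifrd1 with r = 0.972, a regulator induced early in differentiation, Slc25a25 with r = 0.967, a mitochondrial ATP carrier, and Cyr61 with r = 0.950, a secreted matrix protein of the immediate-early class.

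Other genes of the same programme were read from lists of known members. Of 28 other immediate-early genes 27 were tested, and 3 rose in FACS-only against Pre-FACS libraries, 0 fell and 24 did not pass the limma threshold, where 0.123% of all genes were called. The median difference of the list was 0.27 on the log2 scale against 0.00 over all genes, and 16 of 27 genes had an unadjusted p under 0.05, against 6.96% of all genes. The 3 were Plk2, a kinase induced by serum, at 161 to 172 TPM in Pre-FACS and 211 to 256 TPM in FACS-only libraries (0.47, adjusted p = 0.0368), Bhlhe40, a repressor of the clock, at 349 to 423 and 475 to 523 TPM (0.40, adjusted p = 0.0368), and Klf10, a TGF-beta induced factor, at 229.99 to 256 and 293 to 372 TPM (0.47, adjusted p = 0.0379) in the limma fit. Each call was lost without Mock 1, Pre-FACS 1, Pre-FACS 2, FACS-only 2, FACS-only 3 or Pre-enriched 1, that of Plk2 also without Pre-FACS 3, that of Bhlhe40 also without Pre-enriched 2, and that of Klf10 also without Mock 2, Pre-FACS 3 or Pre-enriched 2. The limma adjusted p over these leave-outs reached 0.224 for Plk2, 0.248 for Bhlhe40 and 0.267 for Klf10, each without FACS-only 2. The 3 calls were also lost without the trend (adjusted p 0.279 to 0.307), without the filter (0.0586 to 0.0635) and in a limma fit of the 2 conditions alone (0.0646 to 0.111), and those of Klf10 and Bhlhe40 under quantile normalization (0.0707 and 0.0856). Without the libraries numbered 3 the limma adjusted p was 0.0649 for Plk2, 0.0261 for Bhlhe40 and 0.117 for Klf10.

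Of 16 AU-rich mRNAs known as targets of Zfp36, 13 were tested. Of these 2 rose in FACS-only against Pre-FACS libraries, 0 fell and 11 did not pass the limma threshold (0.123% of all genes called). Zfp36 itself had its highest mean in the same condition. Pim1, a survival kinase, was at 77.3 to 90.1 TPM in Pre-FACS and at 116 to 151 TPM in FACS-only libraries (0.66, limma adjusted p = 0.00588), and kept its call with each library left out in turn, but not without the libraries numbered 3 (adjusted p = 0.0862) or without the trend (adjusted p = 0.116). It was also the 1 gene of these lists called among the 4 conditions (limma adjusted p = 0.0338). Cxcl1, a neutrophil chemokine, was at 295 to 325 TPM in Pre-FACS and at 439 to 545 TPM in FACS-only libraries (0.63, limma adjusted p = 0.0368), and lost its call without any 1 of 6 libraries, Mock 1, Pre-FACS 1, 2 or 3 and FACS-only 2 or 3 (limma adjusted p 0.0509 to 0.186), as well as without the trend (0.279) or the filter (0.0570). The median difference of the 13 genes was 0.31 on the log2 scale against 0.00 over all genes. This list shares Myc, Ier3 and Plk3 with the other immediate-early genes, so the values of these lists are not independent. An unadjusted p under 0.05 was given to 9 of 13, against 6.96% of all genes.

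The remaining lists held 0 called genes in every comparison by limma without a term for the library number. The shares at an unadjusted p under 0.05 stand against 6.96% of all genes. Of 10 other AP-1 and related bZIP genes 9 were tested, with a median difference of 0.28 between FACS-only and Pre-FACS and 5 of 9 at an unadjusted p under 0.05. The largest difference was that of Mafk, a small Maf protein, with 86.96 to 137 TPM in Pre-FACS and 131 to 196 TPM in FACS-only libraries (0.58, adjusted p = 0.586). Of 14 dual-specificity phosphatases and Sprouty genes, which damp ERK signalling, 13 were tested, with a median of 0.14 and 2 of 13 at an unadjusted p under 0.05. Dusp5, a nuclear ERK phosphatase, ran from 243 to 511 TPM in Pre-FACS and from 417 to 677 TPM in FACS-only libraries (0.62, adjusted p = 0.577), and without the libraries numbered 3 it passed the limma threshold (0.72, adjusted p = 0.0120).

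The 20 upstream kinases and SRF, TCF and CREB factors had a median difference of -0.00 between FACS-only and Pre-FACS, with 2 of 20 at an unadjusted p under 0.05. Mkl1, a coactivator of SRF, had the largest, with 14.9 to 20.5 TPM in Pre-FACS and 20.2 to 23.0 TPM in FACS-only libraries (0.26, limma adjusted p = 0.715). Of the 3 relatives of Zfp36, 2 were tested. Zfp36l1 was at 80.4 to 111 TPM in Pre-FACS and at 102 to 113 TPM in FACS-only libraries (0.21, limma adjusted p = 0.679), and 1 of the 2 had an unadjusted p under 0.05.

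The second table holds the input series, in which cells had been spiked into mouse blood, pre-enriched and sorted, and in which bulk RNA served beside them. Because the 2 tables were normalized separately, levels were not compared between them, and because each library is 1 cell or 1 pool of 1 line with no culture named, no test was run between inputs. The genes of this table hold between 54.2% and 99.99% of the fixed TPM total of a library. All 7 epithelial markers were measured, and Epcam was listed at 0 in 1 of the 31 libraries. Of 20 blood cell markers 6 were measured, with summed levels of 0 to 322 TPM in single cells, 0.868 to 111 TPM in pools of 10, 42.2 to 156 TPM in pools of 100 and 47.3 to 64.2 TPM in bulk RNA.

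Libraries of this series did not all look like their labels. Pools of 100 cells fell into pools 1 to 3 and pools 4 to 6. Single cells 6 and 9 and 10-cell pools 5 and 12 resembled 100-cell pools 1 to 3 over the whole table, and the 7 libraries correlated with each other at r = 0.967 to 0.995 across genes, which are not independent replicates. They held 11223 to 11549 genes at 1 TPM or more, whereas the other 9 single cells held 3919 to 8598. With 100-cell pools 1 to 3 the other single cells correlated at 0.643 to 0.828, the other 10-cell pools at 0.882 to 0.955, 100-cell pools 4 to 6 at 0.875 to 0.900 and the bulk RNA at 0.927 to 0.939. The limit of r at 0.96 that sets the 7 apart was chosen after these values were seen. Median TPM named below for single cells and pools of 10 is given with and without the 7.

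By the median, Fos was the most abundant of the 10 genes in every kind of input. It was at 174 TPM at the lowest, 979 at the median and 1351 at the highest of 11 single cells, and at 448, 964 and 1543 TPM in the 12 pools of 10 cells. The 100-cell pools 1 to 3 were at 1391, 1381 and 1325 TPM, pools 4 to 6 at 335, 412 and 372 TPM, and the bulk RNA at 1442 and 1494 TPM. The highest single cell lay under 100-cell pools 1 and 2, and the lowest pool of 10 lay above 100-cell pools 4 to 6. Without the 7 alike libraries the medians were 899.96 TPM in 9 single cells and 785 TPM in 10 pools of 10 cells.

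Fos, Fosb, Jund, Egr1 and Ier2 were at 1 TPM or more in 11 of 11 single cells. Junb reached 1 TPM in 10 of 11 and Zfp36 in 10 of 11, Atf3 in 9, and Jun and Nr4a1 in 7 each. Of the 110 values 98 were at 1 TPM or more and 102 were above 0. Nr4a1 was listed at 0 in single cells 2, 8, 10 and 11, Jun in 8 and 11, and Atf3 and Zfp36 in single cell 11. All 8 values of 0 fell in cells of 3919 to 5823 genes, under or at the median number of the single cells. In the pools and the bulk RNA all 10 genes were at 1 TPM or more in every library. An exact 0 in TPM can be a failed estimate and is not read as absence.

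**Figure D4:**
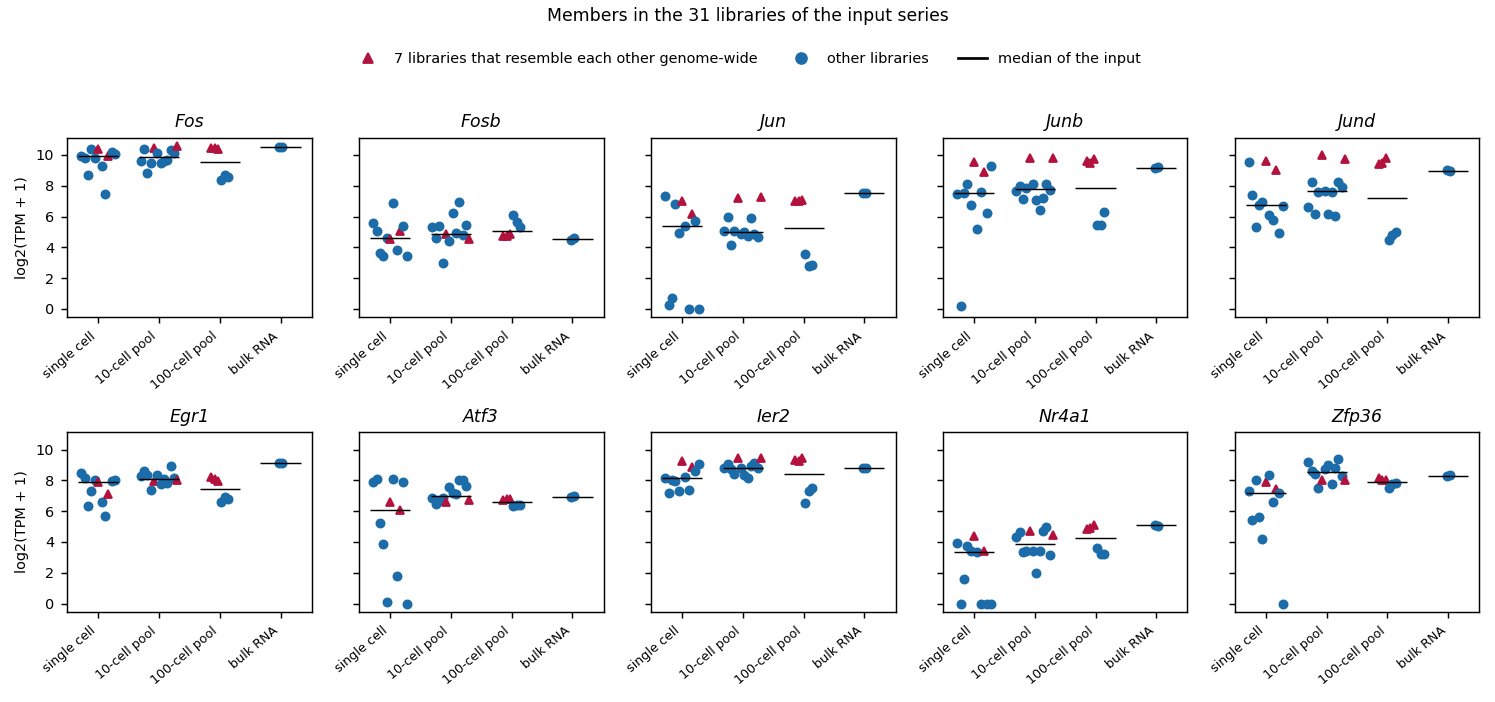
log2(TPM + 1) of the 10 genes (vertical axes) in the 31 libraries of the input series by kind of input, with 1 symbol per library, triangles for the 7 libraries that resemble each other and black lines for medians. Jun, Junb and Jund of the 7 lie above 100-cell pools 4 to 6, and values of 0 occur in single cells for Jun, Nr4a1, Atf3 and Zfp36.

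Jun, Junb and Atf3 varied widely between single cells. Jun ran from 0 to 162 TPM with a median of 40.8, and the 2 cells between 0 and 1 TPM were cells 2 and 3. Junb ran from 0.143 TPM in cell 2 to 751 TPM in cell 6 with a median of 182. Atf3 ran from 0 to 274 TPM with a median of 66.5, in which cells 1, 2, 7 and 10 were at 235 to 274 TPM and cells 5, 8 and 11 were under 2.5 TPM. Over the 9 single cells outside the 7 alike libraries the medians were 29.4 TPM for Jun, 175 for Junb and 36.4 for Atf3. Junb reached 634 TPM at the highest of these 9. No cell was low for all members. Cell 11, at 0 for 4 of them, held 1054 TPM of Fos and 634 TPM of Junb.

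Zfp36 was at 0, 146 and 320.4 TPM at the lowest, median and highest of the single cells and at 179.8, 371 and 685 TPM in the pools of 10 cells. The bulk RNA was at 312 and 321 TPM, inside the range of the pools of 10. Egr1 was at 50.4, 237 and 358 TPM in single cells and at 165, 277 and 500.3 TPM in pools of 10, and both bulk RNA libraries, at 558 and 559 TPM, lay above all 29 sorted libraries. Ier2 was at 144, 281 and 616 TPM in single cells and at 284, 449.9 and 699 TPM in pools of 10, with the bulk RNA at 438 and 446 TPM. Nr4a1 was at 0, 8.99 and 19.9 TPM in single cells and at 2.96, 14.6 and 31.04 TPM in pools of 10. Its bulk RNA values of 34.2 and 31.7 TPM exceeded every single cell and every pool of 10 cells. Outside the 7 alike libraries the medians in single cells and pools of 10 were 96.4 and 407 TPM for Zfp36. They were 246 and 298 TPM for Egr1, 259 and 446 TPM for Ier2 and 2.03 and 9.66 TPM for Nr4a1. The highest values of these single cells were 540 TPM for Ier2 and 14.1 TPM for Nr4a1.

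Fosb was not highest in bulk RNA. It was at 9.63, 23.3 and 118 TPM in single cells, at 7.02, 28.2 and 122 TPM in pools of 10, and at 21.6 and 22.8 TPM in bulk RNA. The highest single cell, cell 7, and the highest pool, pool 9, lay far above the bulk RNA, which lay near the median of the single cells. Outside the 7 alike libraries the medians were 23.3 TPM in single cells and 34.3 TPM in pools of 10.

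The members separated the sets of 100-cell pools to very different degrees. Jund was at 686, 719.5 and 881 TPM in pools 1 to 3 and at 21.3, 26.2 and 30.6 TPM in pools 4 to 6. Jun was at 127, 125 and 132 TPM against 10.7, 5.97 and 6.35 TPM, and Junb was at 777, 721 and 872 TPM against 42.7, 42.0 and 76.2 TPM. The bulk RNA held 494.5 to 510.1 TPM of Jund, 185 to 188 TPM of Jun and 559.6 to 588 TPM of Junb, nearer to pools 1 to 3.

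The ratio of means between pools 1 to 3 and pools 4 to 6 was 29.3 for Jund, 16.6 for Jun and 14.7 for Junb, the 3 Jun genes. It was 4.52 for Ier2, 3.66 for Fos, 3.22 for Nr4a1 and 2.504 for Egr1, and it was 1.32 for Atf3 and 1.29 for Zfp36. For Fosb it was 0.508, with pools 4 to 6 higher at 68.1, 49.95 and 38.6 TPM than pools 1 to 3 at 26.1, 25.2 and 28.3 TPM. The 2 sets did not overlap for any of the 10 genes, but they differed over the whole table. The share of all genes without overlap was not computed, so this is not read as particular to the members. The sets were seen in these same libraries, so the differences are a description with no test. On the log2 scale the difference between pools 4 to 6 and pools 1 to 3 placed Jund at the 0.0243 percentile of all genes, Jun at 0.308 and Junb at 0.365, and Fosb at 95.2. Ier2 lay at the 10.6 percentile, Fos at 16.1, Nr4a1 at 21.7, Egr1 at 29.1, Atf3 at 60.5 and Zfp36 at 61.6, less far from other genes.

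These differences went along with base composition. Over 11403 genes with a GENCODE M21 transcript (92.5% of those past the filter), the log2 difference of pools 4 to 6 from pools 1 to 3 had a Pearson's r of -0.516 and a rho of -0.507 with the GC content of the transcript, across genes that are not independent. Its median was 0.29 for the 545 genes of at most 40% GC and -1.79 for the 540 genes over 60% GC. Transcripts of Jund with 67.1% GC, Junb with 62.6% and Ier2 with 60.9% were the richest in GC of the members, against 51.9% for Fos, 52.2% for Atf3 and 54.1% for Zfp36. Jun at 55.5% and Fosb at 55.98% had nearly equal GC content, yet Jun fell among the lowest differences and Fosb was the highest. Jun, Junb, Jund and Ier2 are genes of 1 exon in this annotation, Egr1 and Zfp36 have 2 exons in their longest coding transcript, Fos, Fosb and Atf3 have 4 and Nr4a1 has 8. The part of base composition in these differences was not tested.

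**Figure D5:**
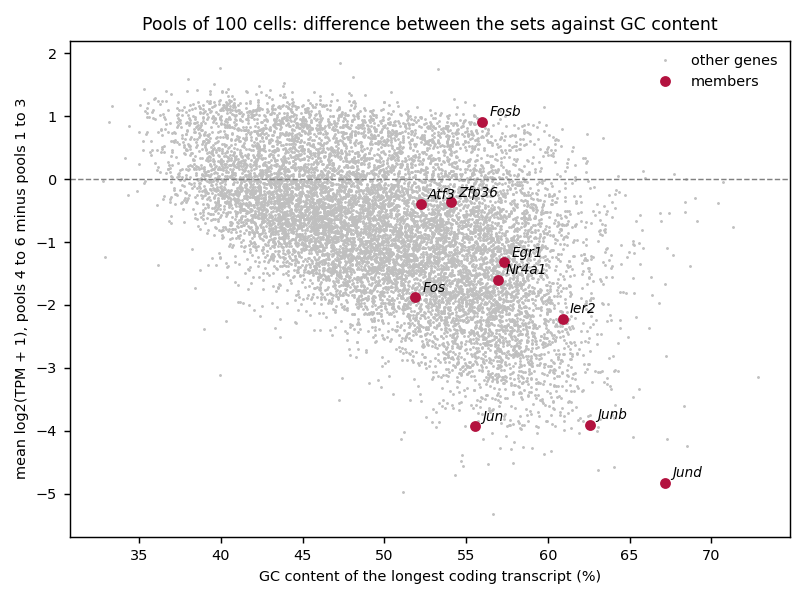
Difference in mean log2(TPM + 1) between 100-cell pools 4 to 6 and pools 1 to 3 (vertical axis) against the GC content of the longest coding transcript in percent (horizontal axis), with grey points for 11403 genes and red points for the 10 members. Jund, with 67.1% GC, lies lowest of the members and Fosb, with 55.98% GC, is the 1 member above 0.

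Covariation with Fos over the 12 pools of 10 cells differed in order from that over the processing libraries. Given as a description over pools of 1 line, r was 0.828 for Jund, 0.749 for Junb, 0.714 for Ier2, 0.670 for Jun, 0.535 for Nr4a1, 0.325 for Egr1, 0.0591 for Atf3, 0.0159 for Zfp36 and -0.240 for Fosb. Without pools 5 and 12 it was 0.773 for Jund, 0.653 for Junb, 0.548 for Ier2, 0.504 for Egr1, 0.454 for Jun, 0.434 for Nr4a1, 0.370 for Atf3, 0.290 for Zfp36 and -0.179 for Fosb. Atf3 and Fosb, nearest to Fos in the processing libraries, were thus among the farthest here, and Jund was the nearest. The genes outside the group most like Fos over the 12 pools were Lss, a sterol cyclase, with r = 0.957, Rnpepl1, an aminopeptidase, with r = 0.947, and Gtf3c2, a subunit of the RNA polymerase III factor TFIIIC, with r = 0.944, and none of these was among the 3 nearest in the processing libraries.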

How the data were processed

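Per the labels and the study's methods, the authors aligned reads of SMART-Seq v4 libraries to mm10 with STAR, counted them per gene with featureCounts and normalized by the upper quartile, and the deposited values are TPM in 2 tables scaled separately. Columns of values left unused numbered 0. TPM keeps no depth, so counting errors could not be given. From TPM, log2(TPM + 1) was computed, which understates changes of low genes, and a gene was kept if 3 or more libraries reached 1 TPM (12159 of the processing table, 12325 of the input table). Groups came from the labels. limma 3.58.1 (R 4.3.3, empirical Bayes with trend) was fitted to the 4 conditions over all 12 libraries, with an F test, 6 pairs, Benjamini-Hochberg adjustment over all genes and a threshold of 0.05. Correlations used 100000 permutations, or all 1296 within conditions, and were adjusted over all genes in place of the 9 relations. Sequences are from RefSeq, and transcripts from GENCODE M21. Python 3.11.15, numpy 2.4.6, pandas 2.3.3, scipy 1.17.1 and matplotlib 3.10.9 were used. The 10 genes and the gene lists were chosen with earlier results of these data known. All 10 members were named, with, from each other list, every gene called, or otherwise the gene of largest difference between FACS-only and Pre-FACS, and the 3 genes most like Fos in each table. The alternatives were a pseudocount of 0.1, no filter, quantile normalization, limma without trend, a replicate block, fits of 2 conditions alone, other detection limits, rescaled TPM and leaving out each library.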

Additional observations from a re-analysis of the deposited data

How the results depend on the processing

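The replicate numbers were checked for pairing over all genes. Of the 18 same-numbered pairs of libraries 2 had a correlation of deviations over 0.1 (range -0.0422 to 0.229), so the numbers were not taken to pair the samples. As a hint from the data, not the design, 9 of 12 libraries correlated best with their own number, and over the members alone all 18 pairs were over 0.1 (0.604 to 0.993). With that number as a block, limma called 7 members among the 4 conditions, 1 in Mock minus Pre-FACS, 7 in FACS-only minus Pre-FACS, 3 in Pre-enriched minus Pre-FACS, 2 in FACS-only minus Mock and 1 in Pre-enriched minus FACS-only, and 0 in Pre-enriched minus Mock, where the fit without the block called 0 throughout. The percent of all genes called with the block was 0.502, 0.0576, 0.633, 0.304, 0.0329, 0.0576 and 0.0164 in this order. For the library number itself limma called 9 members, all but Jund, and 1.29% of all genes. The block also brought Mafk (adjusted p = 0.00103) and Dusp5 (adjusted p = 0.000496) past the limma threshold in FACS-only minus Pre-FACS.

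Without the libraries numbered 3, limma called 1 member among the 4 conditions, 6 in FACS-only minus Pre-FACS and 1 in Pre-enriched minus Pre-FACS, Jun in Mock minus Pre-FACS turned to 0.028 and Jund in Pre-enriched minus Mock turned to 0.014. The cause was not tested. A pseudocount of 0.1, no filter, quantile normalization, no trend and leaving out any 1 library kept all 7 counts of called members at 0, and fits of 2 conditions kept the 6 counts of pairs at 0. The count of relations with Fos past the threshold was 3 to 7 with 1 library left out, 3 without Pre-FACS 1 or FACS-only 3 and 4 without Pre-enriched 3. It was 0 as deviations from condition means, where the 1296 orders limit how small a p can be. It was also 0 without the libraries numbered 3, where 8 libraries were left.

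With 1 library left out, 18 of the 60 member differences changed sign. In Mock minus Pre-FACS the ranges were -0.086 to 0.0998 for Jun, -0.033 to 0.20 for Junb, -0.026 to 0.11 for Jund and -0.044 to 0.096 for Ier2. In FACS-only minus Pre-FACS Jund ran from -0.12 to 0.014. In Pre-enriched minus Pre-FACS Jun ran from -0.068 to 0.12 and Jund from -0.069 to 0.064. In Pre-enriched minus Mock the ranges were -0.042 to 0.16 for Fos, -0.56 to 0.14 for Fosb, -0.047 to 0.090 for Jun, -0.014 to 0.18 for Junb, -0.11 to 0.19 for Egr1, -0.20 to 0.065 for Atf3, -0.24 to 0.45 for Nr4a1 and -0.031 to 0.17 for Zfp36. In Pre-enriched minus FACS-only they were -0.16 to 0.032 for Junb, -0.016 to 0.059 for Ier2 and -0.54 to 0.066 for Nr4a1. The r of Jund with Fos ran from -0.253 to 0.308. The 98 values at 1 TPM or more in single cells became 102 above 0, 96 at 5 TPM, 98 rescaled and 78 without cells 6 and 9. The depth of the libraries is unknown.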

Other observations

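Other genes of the early response were also highest in library 3 of all 4 conditions, a pattern held by 2.56% of all genes. Of the 27 other immediate-early genes tested 13 showed it, which were Egr2, Klf10, Ier5, Btg2, Cyr61, Sgk1, Arc, Plk2, Plk3, Csrnp1, Errfi1, Trib1 and Phlda1. Of the 13 dual-specificity phosphatases and Sprouty genes 4 showed it, Dusp1, Dusp4, Dusp5 and Dusp6, and of the 9 other AP-1 and related bZIP genes 3, Fosl1, Maff and Mafk. Of the 20 upstream kinases and factors only Srf did, of the 2 Zfp36 relatives Zfp36l2, and of the 13 AU-rich targets of Zfp36 only Plk3.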
